A study of Homo sapiens with 6 samples.

Results

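The alpha and beta tubulins described here are 10 genes of the 57773 in the deposited expression values, chosen by name with earlier results of these data known. They are the 4 alpha tubulin genes TUBA1A, TUBA1B, TUBA1C and TUBA4A and the 6 beta tubulin genes TUBB, TUBB2A, TUBB2B, TUBB3, TUBB4B and TUBB6. Each was found by matching its Ensembl gene identifier to GENCODE v44 on GRCh37, and all 10 passed the filter on low values that left 15451 genes for testing.

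Alpha and beta tubulin pair one to one into the dimer from which microtubules are built, the filaments that carry chromosomes in mitosis and cargo through the cell. Human cells make each subunit from several genes, called isotypes, whose proteins are alike in their bodies and differ mostly in the last residues. The level of the mRNAs is set in part by the dimer pool itself: when free dimers are plentiful, the adaptor TTC5 recognises the first residues of a new tubulin chain on the ribosome and, through SCAPER, recruits the machinery that degrades that mRNA.

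H460 is a human lung cancer cell line. It was transfected at 50 nM for 48 h with a non-targeting siRNA (siNT, 3 libraries) or with si*HKlincR1*_2, an siRNA against the long intergenic non-coding RNA *HKlincR1* (si*HKlincR1*, 3 libraries), and polyA RNA was sequenced as biological triplicates numbered 1 to 3. A single siRNA and a single cell line stand for the knockdown, and all libraries carry a transfected siRNA. Values are RPKM, that is, reads per kilobase of gene model scaled to the size of the library, as the authors computed them.

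*HKlincR1* (ENSG00000170846) was at 3.62, 3.47 and 3.83 RPKM in siNT replicates 1 to 3 and at 0.563, 0.628 and 0.390 RPKM in si*HKlincR1* replicates 1 to 3, a fall of 85.5% (limma with Benjamini-Hochberg adjustment, adjusted p = 0.00245). The libraries held 24980280 to 30521000 reads. Of the epithelial markers, the keratins KRT8, KRT18 and KRT19 averaged 31.5, 82.4 and 41.6 RPKM with siNT, while EPCAM averaged 0.0556 RPKM and CDH1 was listed at 0 in every siNT library, so these defining epithelial markers were at or near 0. Of markers of other cell types, PTPRC of blood cells averaged 0.0370 RPKM with siNT, HBB of red cells was listed at 0, and the fibroblast collagen COL1A1 had a mean of 1.10 RPKM in siNT cells and of 0.58 RPKM after the knockdown. Replicate 3 of si*HKlincR1*, in which *HKlincR1* was lowest, stood apart from the other 2 libraries of its group in the tubulins, and results that rest on it are given with and without it. In polyA RNA from whole cultures, fewer cells of a kind and less tubulin RNA per cell cannot be told apart.

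The isotypes are shown by the ends of their coding regions, one shared and one divergent. The first 30 coding bases (GENCODE canonical transcripts on GRCh37) are shown for 5 members because the first 4 codons, in capitals, encode the residues read by the autoregulation machinery.
TUBA1C: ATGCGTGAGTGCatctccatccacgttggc
TUBA4A: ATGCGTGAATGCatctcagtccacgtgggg
TUBB: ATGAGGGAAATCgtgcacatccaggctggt
TUBB2B: ATGCGTGAGATCgtgcacatccaggcgggc
TUBB6: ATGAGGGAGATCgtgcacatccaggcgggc
The alpha genes start with the codons for methionine, arginine, glutamate and cysteine, and the beta genes have an isoleucine codon in the fourth place. TUBA1A and TUBA1B have the same 30 bases as TUBA1C.

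At the other end, the last 30 coding bases with the stop codon are shown for the beta genes because antibodies and modifying enzymes tell isotypes apart at this tail. Capitals mark bases that differ from TUBB at the same distance from the end of the coding region, compared without gaps.
TUBB: ttcggtgaggaggccgaagaggaggcctaa
TUBB2A: GAGgAGgaggaggGcgaGgaCgaggcTtaa
TUBB2B: GAGgAGgaggaggGcgaGgaCgaggcGtaG
TUBB3: GAGgAGTCggaggccCaGgGCCCCAAGtGa
TUBB4B: GAGgAGgaggCTgAGgaGgaggTggcctaG
TUBB6: GAGgAtgaggaAgAGgaGATCgaTgGAtaG
Compared in this way, the tails differ from TUBB at 9 bases in TUBB2A and at 18 in TUBB3. The coding regions differ in length (1335 bases in TUBB, 1338 in TUBB2A and 1353 in TUBB3). Some of these differences may therefore come from a shift between the tails.

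Whole coding regions were 84.4% to 97.2% identical among the alpha genes and 81.0% to 98.1% among the beta genes, against 55.1% to 58.1% between an alpha and a beta gene. The closest pair was TUBB2A and TUBB2B.

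This likeness bears on how well reads could be told apart, since the libraries were read in stretches of 75 bases. Reads were paired, and single windows of this length take no account of the mate, so the shares below can overstate the uncertainty. In TUBB6, 0.0% of the 75-base windows of the canonical transcript occurred in a transcript of another gene, in TUBA4A 3.2%, in TUBB4B 5.6%, in TUBB 9.0% and in TUBA1C 18.1%. The share was 31.2% in TUBA1A, 48.4% in TUBA1B, 52.1% in TUBB2B, 59.5% in TUBB2A and 92.6% in TUBB3. The levels of these last 5 genes are therefore less certain. TUBA1C shared 407 windows with TUBA1B and TUBB2A shared 864 with TUBB2B. TUBB3 shared 1512 with ENSG00000198211, a readthrough gene of MC1R and TUBB3 that overlaps it on the same strand. That gene was listed at 0 in all 6 libraries, so any reads in stretches held by both were not credited to both. Whether such reads were left out is not stated, and the TUBB3 values may rest on only part of its gene.

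**Figure D1:**
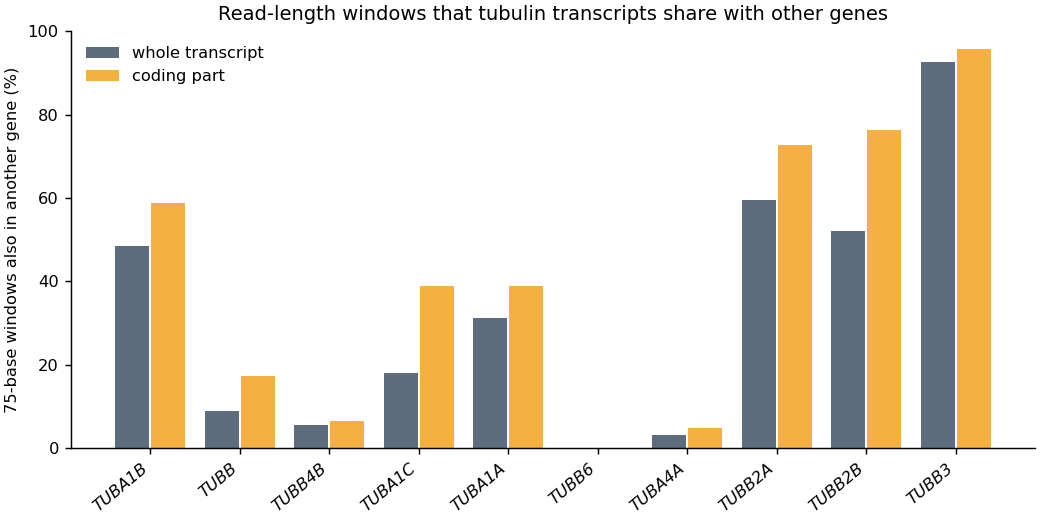
Percent of 75-base windows of each member's canonical transcript (grey) and of its coding part (orange) that also occur in a transcript of another gene, with members in order of their level. TUBB6 has none, and TUBB3 shares 92.6% of its whole transcript.

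Several members lie side by side in the genome (GRCh37). TUBA1B (chr12:49521565-49525180, minus strand), TUBA1A (chr12:49578469-49582863, minus strand) and TUBA1C (chr12:49582519-49668383, plus strand) are neighbours, and the first 345 bases of TUBA1C overlap those of TUBA1A on the opposite strand. TUBB2A (chr6:3153731-3157778) and TUBB2B (chr6:3223558-3231964) are neighbours on the minus strand, and TUBB (chr6:30685212-30693315, plus strand) lies apart from them. TUBA4A (chr2:220114432-220142624, minus strand), TUBB4B (chr9:140135739-140138159, plus strand), TUBB3 (chr16:89987800-90005169, plus strand) and TUBB6 (chr18:12307668-12344319, plus strand) each lie on another chromosome. TUBB6 overlaps AFG3L2, on the opposite strand, over 15377 bases. AFG3L2 was at 15.3 to 16.6 RPKM in the 6 libraries. Whether the counting used strand is not stated, so reads of members and of overlapping genes on the opposite strand may not have been separated.

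In siNT cells, 4 members made up most of the tubulin mRNA. TUBA1B, a widely expressed alpha isotype, was highest at 461 ± 47.3 RPKM (SD, n = 3). TUBB, the beta isotype of most dividing cells, followed at 364 ± 32.5 RPKM and TUBB4B, another widely expressed beta isotype, at 295 ± 57.6 RPKM. TUBA1C came next at 145 ± 9.52 RPKM.

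A middle group followed. TUBA1A, the alpha isotype best known from the developing brain, was at 39.5 ± 6.24 RPKM, and TUBB6, a minor beta isotype, at 23.2 ± 2.48 RPKM. TUBA4A was at 18.7 ± 4.08 RPKM and TUBB2A at 12.6 ± 1.73 RPKM. The 2 lowest members were TUBB2B at 2.55 ± 0.185 RPKM and TUBB3, a beta isotype used as a marker of neurons, at 1.13 ± 0.245 RPKM. The TUBB3 value may leave out reads in stretches shared with the readthrough gene.

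Neighbours in this order were separated in every siNT library value except in 2 places. TUBB4B (261 to 362 RPKM) overlapped TUBB (343 to 401 RPKM), and TUBA4A (16.3 to 23.4 RPKM) overlapped TUBB6 (21.8 to 26.1 RPKM). With reads divided by the length of the canonical transcript in place of the authors' gene model, TUBB3 (4.06 ± 0.882) moved above TUBB2B (2.91 ± 0.212), and the order of the other 8 was kept.

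Which tubulin isotypes differed between si*HKlincR1* and siNT cells is the question the remaining comparisons address. Calls required an adjusted p under 0.05 from limma together with a difference of more than 1.5-fold, on the scale of log2(RPKM + 0.1), which understates differences of low genes. Of the 10 members, 1 was called lower, TUBA1C, and 0 were called higher, beside 0.356% of all tested genes called lower and 0.00647% called higher. At an unadjusted limma p under 0.05 there were 6 members, all lower, beside 9.19% of tested genes lower at that p. Limma-voom on the reads also called 1 member lower and 0 higher, beside 0.563% of tested genes called lower and 0.0129% called higher. All 10 log2 fold changes were negative, from -0.06 to -0.81 with a median of -0.53, while the median of all tested genes was 0.0011 and 49.8% of them were negative. The members moved together between libraries, so their shared sign is not that of 10 independent genes. Because they were chosen with earlier results of these data known, the comparison with all tested genes is only a description.

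**Figure D2:**
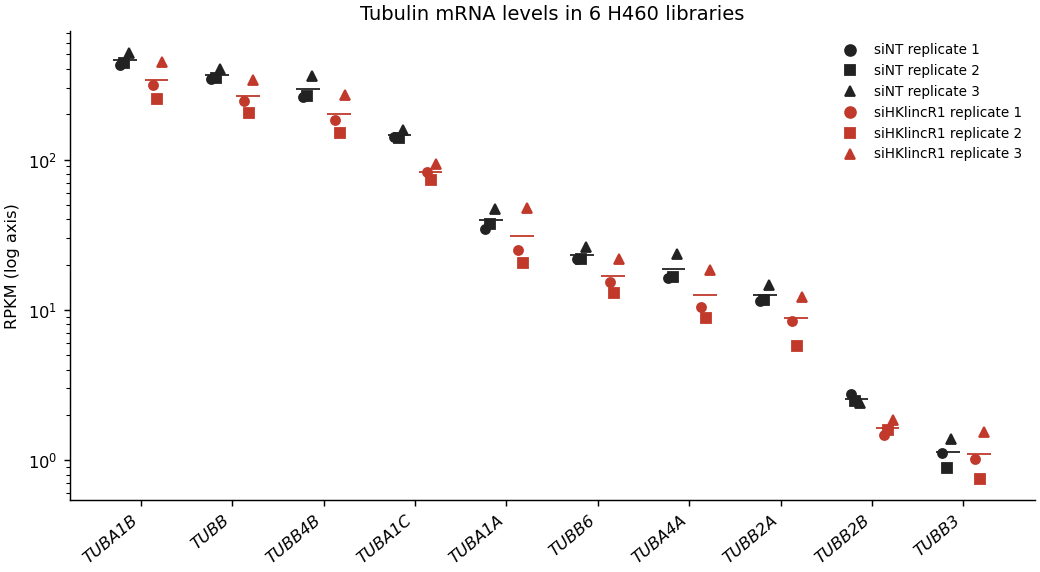
RPKM (log axis) of the 10 members in the 3 siNT libraries (black) and the 3 si*HKlincR1* libraries (red), with symbols for the replicate number and a line at each group mean. All red points lie below all black points in TUBA1C, TUBB and TUBB2B, and the red triangle, replicate 3, is the highest red point in every member.

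TUBA1C (ENSG00000167553) was the called member. It was at 141, 139 and 156 RPKM in siNT replicates 1 to 3 and at 82.4, 73.5 and 93.0 RPKM in si*HKlincR1* replicates 1 to 3, from 7142 to 14223 reads per library. The groups did not overlap, and the mean fell by 42.9%, from 145 ± 9.52 to 82.9 ± 9.74 RPKM (SD, n = 3). Its log2 fold change was -0.81 with a standard error of 0.10 and a 95% interval of -1.05 to -0.58 (limma adjusted p = 0.0283). Each same-numbered pair of libraries differed by a like amount, -0.77, -0.92 and -0.75 on the log2 scale.

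The TUBA1C call depended on the libraries used although its direction and size did not. Over 15 alternative settings the log2 fold change stayed between -0.90 and -0.73, and the gene was called in 8 of them. The limma adjusted p was 0.150, 0.156 and 0.109 without siNT replicate 1, 2 or 3, 0.183 and 0.0872 without si*HKlincR1* replicate 1 or 2, and 0.0164 without si*HKlincR1* replicate 3.

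The other 3 alpha genes were lower on average without passing the test. TUBA1B (ENSG00000123416) was at 427, 441 and 515 RPKM with siNT and at 313, 254 and 446 RPKM with si*HKlincR1*. Replicate 3 of si*HKlincR1* lay inside the siNT range, and the other 2 libraries lay below it. The log2 fold change was -0.48 with a 95% interval of -0.95 to -0.02 (standard error 0.20, limma adjusted p = 0.301).

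TUBA1A (ENSG00000167552) was at 34.6, 37.5 and 46.5 RPKM with siNT and at 24.8, 20.5 and 47.5 RPKM with si*HKlincR1*. Here replicate 3 of si*HKlincR1* was the highest of all 6 libraries, at 2.1 times the mean of the other 2 libraries of its group. The log2 fold change was -0.44 with a 95% interval of -1.13 to 0.26 (standard error 0.30, limma adjusted p = 0.475).

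TUBA4A (ENSG00000127824) was at 16.3, 16.5 and 23.4 RPKM with siNT and at 10.5, 8.76 and 18.3 RPKM with si*HKlincR1*. Replicates 1 and 2 of si*HKlincR1* were below all siNT libraries and replicate 3 was not. The mean RPKM was 33.1% lower, and the fitted log2 value was -0.63 (standard error 0.28, limma adjusted p = 0.317).

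Among the beta genes none was called in the fit without a block. TUBB (ENSG00000196230) was at 343, 347 and 401 RPKM with siNT and at 247, 205 and 340 RPKM with si*HKlincR1*. The groups did not overlap, though replicate 3 of si*HKlincR1* came within a few RPKM of siNT replicate 1. The log2 fold change was -0.49 with a 95% interval of -0.91 to -0.07 (standard error 0.18, limma adjusted p = 0.268).

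TUBB4B (ENSG00000188229) was at 261, 263 and 362 RPKM with siNT and at 183, 151 and 270 RPKM with si*HKlincR1*. The groups overlapped through si*HKlincR1* replicate 3. Its log2 fold change of -0.58 (standard error 0.23, limma adjusted p = 0.291) was just under the 1.5-fold threshold. In the fit blocked on replicate number TUBB4B had a limma adjusted p of 0.0444, past the threshold for p but not for fold change, so it was not called.

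TUBB6 (ENSG00000176014), whose windows are shared with no other gene, was at 21.8, 21.8 and 26.1 RPKM with siNT and at 15.4, 13.0 and 21.8 RPKM with si*HKlincR1*. The mean was 27.9% lower, and replicate 3 of si*HKlincR1* reached the lowest siNT values. The log2 fold change was -0.50 (standard error 0.18, limma adjusted p = 0.271).

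The near-identical pair TUBB2A and TUBB2B differed in how their libraries were ordered. TUBB2A (ENSG00000137267) was at 11.4, 11.7 and 14.6 RPKM with siNT and at 8.46, 5.77 and 12.2 RPKM with si*HKlincR1*, with overlapping groups (log2 fold change -0.57, standard error 0.25, limma adjusted p = 0.32). TUBB2B (ENSG00000137285) was at 2.76, 2.48 and 2.41 RPKM with siNT and at 1.46, 1.59 and 1.86 RPKM with si*HKlincR1*. Its groups did not overlap, and its log2 fold change of -0.61 had a 95% interval of -0.90 to -0.32 (standard error 0.12, limma adjusted p = 0.111). TUBB2B rested on 91 to 168 reads per library, against 288 to 628 for TUBB2A, and siNT replicate 3 was its lowest siNT library, whereas it was the highest for the other 9 members.

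TUBB3 (ENSG00000258947) was the member with the smallest difference, in values that may leave out reads in stretches shared with the readthrough gene. It was at 1.12, 0.886 and 1.38 RPKM with siNT and at 1.02, 0.749 and 1.53 RPKM with si*HKlincR1*, and the groups overlapped. The log2 fold change was -0.06 with a 95% interval of -0.70 to 0.58 (limma adjusted p = 0.919), which holds the estimates of every other member except TUBA1C.

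**Figure D3:**
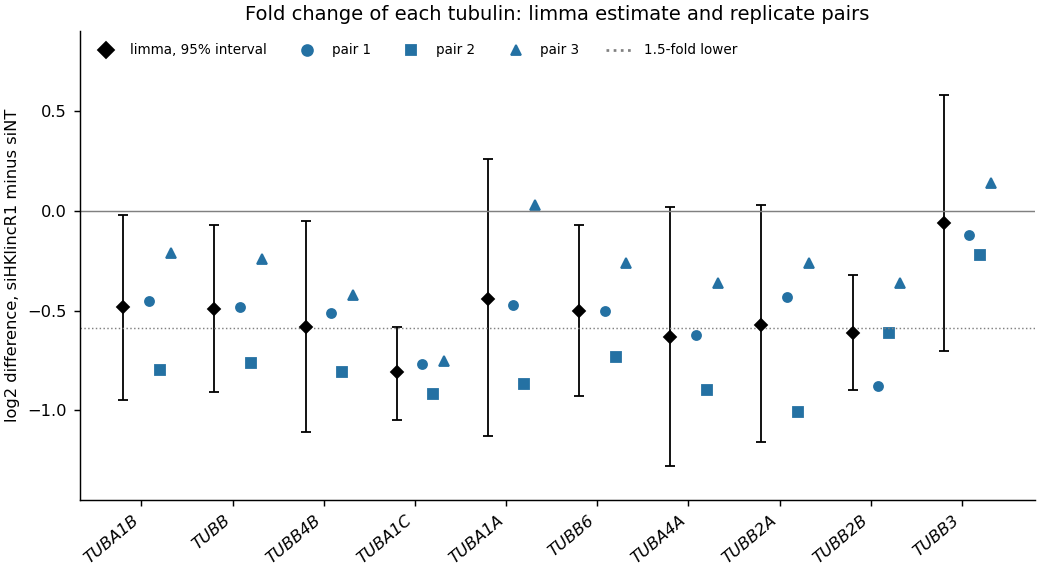
Log2 difference between si*HKlincR1* and siNT for each member: limma estimate with its 95% interval (black diamonds) and the difference within each same-numbered pair of libraries (blue symbols), with a dotted line at 1.5-fold lower. In TUBA1C the 3 pairs lie between -0.75 and -0.92, and in 8 of 10 members all 3 pairs are below 0.

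Read by replicate number, 8 members were lower with si*HKlincR1* in all 3 pairs, which 25.2% of all tested genes were. The exceptions were TUBA1A and TUBB3, each higher in pair 3, by 0.03 and 0.14 on the log2 scale. All si*HKlincR1* libraries lay below all siNT libraries for 3 members, TUBA1C, TUBB and TUBB2B, against 11.9% of tested genes, and above them for 0 members, against 10.1%. Blocking on the replicate number gave the same counts, 1 member called lower and 0 higher, beside 0.809% of tested genes called lower and 0.511% called higher. At an unadjusted p under 0.05 the blocked limma fit had 9 members lower, beside 14.0% of tested genes. The member called was again TUBA1C (limma adjusted p = 0.0138).

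The libraries were ordered alike in nearly every member. Replicate 3 was the highest siNT library for 9 members and the highest si*HKlincR1* library for 10 members, which 38.5% and 39.1% of tested genes showed. Replicate 2 was the lowest si*HKlincR1* library for 9 members, against 37.1% of tested genes. This order was not particular to the members. TUBB4A, TUBG1, TUBG2 and TUBD1 also had it in both groups, while the other tested tubulins, TUBAL3 and TUBE1, did not. CCT2, CCT3, CCT4, CCT5, CCT6A, CCT7, CCT8 and TCP1, genes of the chaperonin that folds tubulin, had it too. Among further folding and control genes, PFDN2, PFDN4, TBCEL, TTC5 and SCAPER did not. Replicate 3 of si*HKlincR1* was at 1.19 times the mean of the other 2 libraries of its group in TUBA1C, at 1.22 times in TUBB2B and at 1.5 to 2.1 times in the other 8 members. For replicate 3 of siNT the values were 1.12 in TUBA1C, 0.92 in TUBB2B and 1.16 to 1.43 in the other 8 members.

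As a description, the deviations of the members from their group means were correlated over the 6 libraries, with a median Pearson's r of 0.973 over 45 pairs of members and r above 0.9 in 36 pairs. The highest value, 0.999, was that of TUBA1B and TUBB. TUBB2B followed the others least, with r of 0.346 to 0.535, and the pair of TUBA1C and TUBB2B gave the lowest value. Without these 2 genes the lowest of 28 values was 0.901. All points come from the same 6 libraries and share their depth, and the part that windows shared between members have in these values was not tested. The part of the si*HKlincR1* library that stood apart from its group was not tested either. No such values are given for pairs of other tested genes, so how unusual those of the members are is not known.

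**Figure D4:**
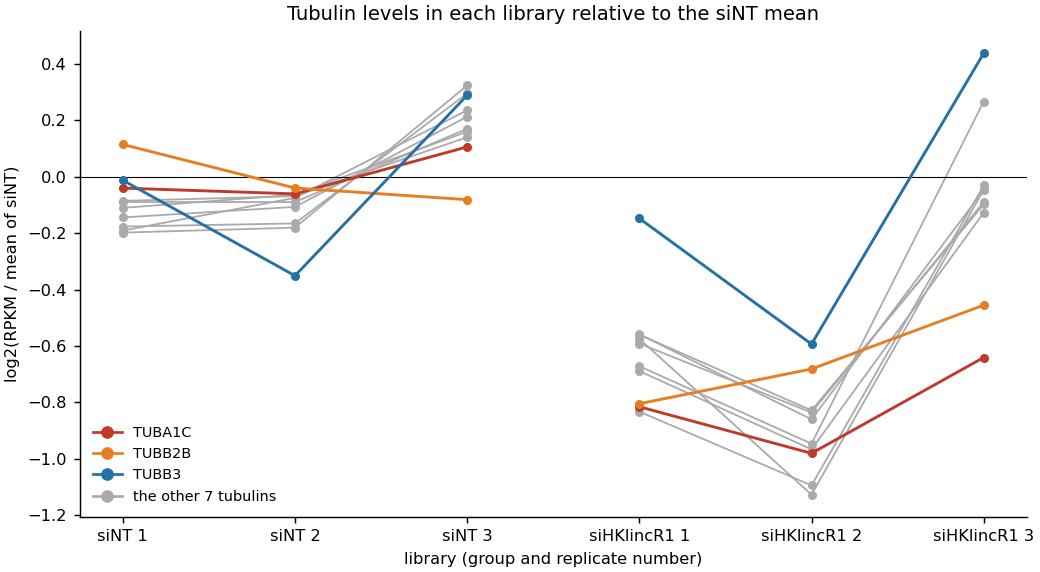
Log2 of each member's RPKM over its own siNT mean in each of the 6 libraries, with lines that only join values of one member within a group, since replicates have no order. The 7 members in grey are highest in replicate 3 of both groups, while TUBA1C (red) and TUBB2B (orange) lie below their siNT values in all si*HKlincR1* libraries.

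Leaving out si*HKlincR1* replicate 3 changed the count. In that fit 9 members were called lower, all except TUBB3, beside 2.04% of tested genes. The log2 fold changes of the 9 ran from -0.69 in TUBB to -0.94 in TUBA4A, and their limma adjusted p from 0.0164 in TUBA1C to 0.0477 in TUBB2A. That of TUBB3 was -0.31 (limma adjusted p = 0.421). The fit kept siNT replicate 3, the highest siNT library for 9 members, without the si*HKlincR1* library of the same number. Within pairs 1 and 2 the log2 differences were -0.48 and -0.76 in TUBB and -0.62 and -0.90 in TUBA4A. A fit without both libraries numbered 3 was not made. Leaving out any one of the other 5 libraries gave 0 called members, with 2 to 5 members lower at an unadjusted limma p under 0.05, as were 5.91% to 6.86% of tested genes. Without si*HKlincR1* replicate 2, the lowest library of its group in 9 members, the differences were smaller. The log2 fold change was then -0.19 in TUBA1A, -0.30 in TUBA1B and in TUBB2A, -0.41 in TUBA4A, -0.33 in TUBB, -0.39 in TUBB4B and -0.34 in TUBB6, while TUBA1C was at -0.73 and TUBB2B at -0.60. Replicate 3 of si*HKlincR1* was the library with the lowest *HKlincR1* level, 0.390 RPKM, and why its tubulin mRNAs were higher was not tested.

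Summed over isotypes, both subunits had lower means after the knockdown. The 4 alpha genes summed to 618, 633 and 741 RPKM with siNT and to 431, 356 and 604 RPKM with si*HKlincR1*. The groups did not overlap and the mean sum was 30.2% lower, 464 ± 127 against 664 ± 66.8 RPKM (SD, n = 3, p = 0.10 in an exact two-sided permutation test, which cannot give a smaller p with groups of 3). The 6 beta genes summed to 641, 647 and 807 RPKM with siNT and to 456, 376 and 647 RPKM with si*HKlincR1*, a mean 29.4% lower with overlapping groups (exact two-sided permutation test p = 0.20). On the log2 scale the sums differed by -0.52 (alpha) and -0.50 (beta). Both were at -0.75 without si*HKlincR1* replicate 3, and at -0.36 and -0.34 without replicate 2.

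The ratio of the subunits was much alike in all libraries. The alpha sum over the beta sum was 0.964, 0.979 and 0.918 with siNT and 0.944, 0.947 and 0.934 with si*HKlincR1* (exact two-sided permutation test p = 0.50). The difference between the groups was smaller than the spread among siNT libraries. The level of this ratio depends on the lengths used: with canonical transcripts it was 1.37 ± 0.0428 with siNT and 1.37 ± 0.00777 with si*HKlincR1* (SD, n = 3, exact two-sided permutation test p = 0.90).

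Within the alpha genes, TUBA1C held a smaller share in every si*HKlincR1* library than in any siNT library. It made up 22.8%, 21.9% and 21.1% of the alpha sum with siNT and 19.1%, 20.6% and 15.4% with si*HKlincR1*, lower by 3.54 percentage points on average. TUBA1B took 69.0%, 69.6% and 69.5% with siNT and 72.7%, 71.2% and 73.7% with si*HKlincR1*, higher by 3.18 points. For both, the groups did not overlap and the exact two-sided permutation p was 0.10, which became 0.333 after adjustment over the 10 shares, so neither difference passed. The size of the shift rested partly on 1 library and on the lengths used. The TUBA1C difference was -2.05 points without si*HKlincR1* replicate 3, -4.67 without replicate 2 and -2.33 with canonical transcript lengths, and that of TUBA1B was 2.57, 3.86 and 2.12 points.

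The ratio of TUBA1C to TUBA1B was 0.330, 0.315 and 0.303 with siNT and 0.263, 0.290 and 0.209 with si*HKlincR1* (exact two-sided permutation test p = 0.10). Its mean was 0.316 with siNT and 0.254 with si*HKlincR1*, or 0.276 without replicate 3 of the latter. A ratio within a library does not depend on how the library was scaled. TUBA1A made up 5.93% ± 0.346 of the alpha sum with siNT and 6.46% ± 1.21 with si*HKlincR1*, and TUBA4A 2.80% ± 0.316 and 2.64% ± 0.332 (SD, n = 3). Both of these differences were within the spread of the libraries.

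Within the beta genes the shares of the main members differed little between the groups. TUBB held 52.3% ± 2.24 of the beta sum with siNT and 53.7% ± 1.0 with si*HKlincR1*, and TUBB4B 42.1% ± 2.38 and 40.6% ± 0.950 (SD, n = 3). In same-numbered pairs the TUBB share was higher and the TUBB4B share lower with si*HKlincR1* in all 3. The mean differences, 1.37 and -1.43 points (exact two-sided permutation test p = 0.50 each), were 0.078 and -0.057 points without siNT replicate 3. TUBB6 was at 0.0637 ± 0.00116 of the TUBB level with siNT and at 0.0634 ± 0.00102 with si*HKlincR1*. TUBB3 was the one beta gene whose share was higher in every si*HKlincR1* library, 0.225%, 0.199% and 0.237% against 0.175%, 0.137% and 0.170% (exact two-sided permutation test p = 0.10, adjusted p = 0.333 over 10 shares).

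**Figure D5:**
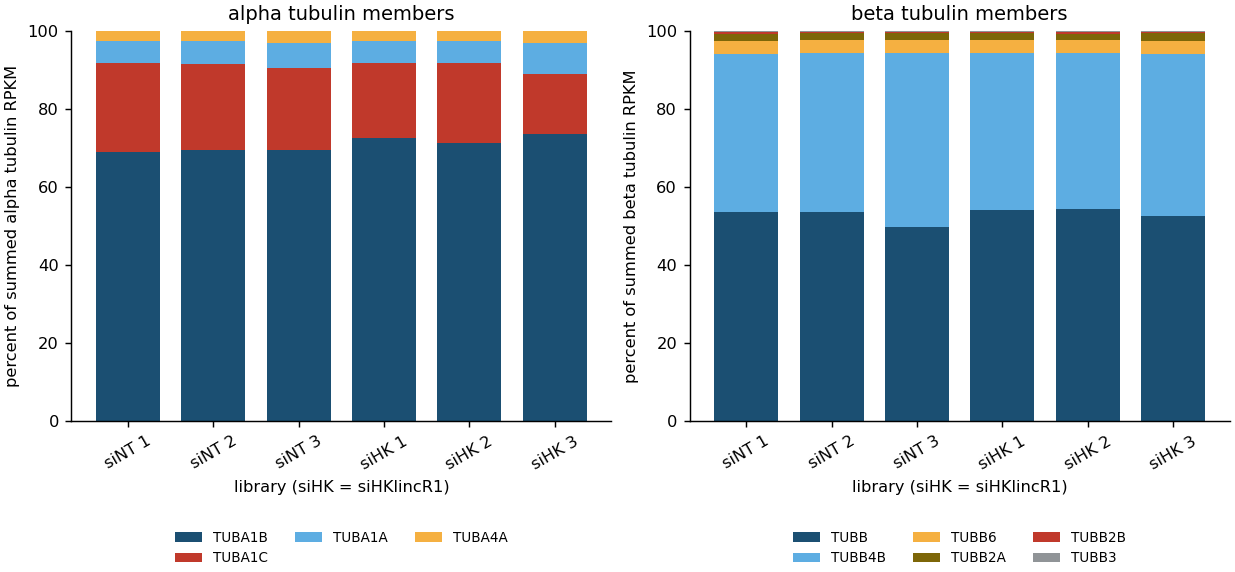
Percent of the summed alpha tubulin RPKM (left) and of the summed beta tubulin RPKM (right) held by each member in each library. TUBA1C (red, left) takes 21.1% to 22.8% in siNT libraries and 15.4% to 20.6% in si*HKlincR1* libraries, while TUBB and TUBB4B fill most of every beta bar and TUBB2B and TUBB3 are too small to see.

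An siRNA can lower mRNAs other than its target through the seed, bases 2 to 8 of its guide strand, where these pair with a 3′ UTR. The siRNA sequence given with the samples is shown because a site for its seed occurs in the member that was called. Capitals mark the seed in the guide strand and its complement in the sense strand and in the transcript, both strands 5′ to 3′.
si*HKlincR1*_2 sense strand: gaaguauacucGUGUGCUu
si*HKlincR1*_2 guide strand: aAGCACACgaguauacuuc
TUBA1C 3′ UTR, chr12:49667011-49667031 (GRCh37, plus strand): cctGTGTGCTgtacttttaca
The 7-base site lies in exon 4 of the canonical transcript and starts at base 4 of the 3′ UTR. It was found in the 3′ UTR of 1 of the 10 members (10.0%) and of 1513 of 10761 tested genes (14.1%), and in no coding region or 5′ UTR of a member. A match of this kind is common and is only a description, and its part in the level of TUBA1C was not tested.

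The promoters of the members are described by a pair of motifs. CCAAT on either strand (CCAAT or ATTGG), the element bound by NF-Y, occurred in 9 of the 15 RefSeq promoters of the 10 members (60%), against 34.6% of all 35116 promoters of the same length, from 250 bases before to 50 after a start. TATAAA on the strand of the gene occurred in 1 of the members' promoters (6.7%), that of TUBB2A, against 7.3% of all. The motifs do not overlap each other. Some members have several promoters, so the 15 are not independent. Those of TUBA1C at chr12:49227676-49227975 and chr12:49227769-49228068 (GRCh38.p14) overlap and hold the same CCAAT element, which is thus counted in both. Neither of them holds the canonical start of TUBA1C.

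The promoter of TUBA1C is shown as that of the called member and that of TUBB4B as the one with most CCAAT elements, in capitals (RefSeq, GRCh38.p14).
TUBA1C, chr12:49264832-49265131, plus strand: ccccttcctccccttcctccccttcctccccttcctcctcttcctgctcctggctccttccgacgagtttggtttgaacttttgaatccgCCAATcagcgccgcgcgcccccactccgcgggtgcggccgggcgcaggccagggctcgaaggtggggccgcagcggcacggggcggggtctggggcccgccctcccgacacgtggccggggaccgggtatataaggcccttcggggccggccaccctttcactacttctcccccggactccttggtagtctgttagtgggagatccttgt
TUBB4B, chr9:137241037-137241336, plus strand: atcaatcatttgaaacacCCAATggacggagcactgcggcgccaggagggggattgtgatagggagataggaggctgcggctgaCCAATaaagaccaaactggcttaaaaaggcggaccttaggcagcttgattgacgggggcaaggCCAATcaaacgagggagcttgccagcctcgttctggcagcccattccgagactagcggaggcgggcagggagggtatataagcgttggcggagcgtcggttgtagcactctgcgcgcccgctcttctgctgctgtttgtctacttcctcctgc
TUBB4B holds 3 of these elements, TUBA1A 2, and TUBA1C, TUBB, TUBB2B, TUBB3 and TUBB6 1 each in the promoter at their canonical start, while TUBA1B, TUBA4A and TUBB2A hold 0. TUBA1B, whose levels followed those of TUBB most closely, lacks these letters in this window.

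Processed pseudogenes of tubulins, copies made from mRNA, resemble their parent genes closely. Of 49 annotated alpha and beta tubulin pseudogenes, 27 were above 0 and 5 were tested. TUBBP1, which shares 213 windows with TUBB, was at 46.2, 42.0 and 50.0 RPKM with siNT and at 31.0, 25.8 and 41.8 RPKM with si*HKlincR1* (log2 fold change -0.51, limma adjusted p = 0.246). TUBAP2, which shares 174 windows with TUBA1B, was at 17.9 ± 1.99 and 13.4 ± 3.85 RPKM (log2 fold change -0.45, limma adjusted p = 0.319). TUBBP6 was at 5.17 ± 0.364 and 3.79 ± 1.13 RPKM (log2 fold change -0.48, limma adjusted p = 0.313). None of the 3 was called, and reads of the parent genes and of these copies may not have been separated.

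None of the other tubulin genes was called without the block. Of 12 listed, 11 were in the file, 6 were tested, 4 of these had a negative log2 fold change, with a median of -0.25, and 0 were called by limma or limma-voom (1 lower and 1 higher at an unadjusted limma p under 0.05). In the blocked limma fit 4 of the 6 were lower and 1 was higher at that unadjusted p, beside 14.0% of all tested genes lower. TUBG1, the gamma tubulin that starts microtubules at the centrosome, was at 56.1 ± 6.97 and 43.8 ± 11 RPKM (log2 fold change -0.38, limma adjusted p = 0.337), and TUBB4A, a beta isotype of the nervous system, at 3.64 ± 0.543 and 2.69 ± 1.06 RPKM (log2 fold change -0.48, limma adjusted p = 0.381). TUBE1, the epsilon tubulin of centrioles, had a higher mean after the knockdown, at 3.02, 2.77 and 1.28 RPKM with siNT and 4.96, 5.24 and 2.78 RPKM with si*HKlincR1*. Its log2 fold change was 0.89 (limma adjusted p = 0.301), and the blocked fit called it higher at 0.0298.

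The machinery that folds tubulin and controls its mRNA showed no common direction as a whole. Of 22 tested genes of this list 11 had a negative log2 fold change, and 0 were called with or without the block or by limma-voom (1 lower and 3 higher at an unadjusted limma p under 0.05). TTC5 was at 2.03 ± 0.144 and 2.23 ± 0.0828 RPKM and SCAPER at 1.51 ± 0.106 and 1.61 ± 0.0888 RPKM with siNT and si*HKlincR1*. PFDN2, a prefoldin subunit that hands new tubulin to the chaperonin, had the largest difference, with 141 ± 4.98 and 197 ± 22.4 RPKM (log2 fold change 0.47, limma adjusted p = 0.107). PFDN4 and TBCEL, another prefoldin subunit and a protein that takes tubulin dimers apart, had log2 fold changes of 0.25 each. The chaperonin genes, CCT2 to CCT8 and TCP1, all had small negative values, from -0.01 in CCT5 and CCT8 to -0.15 in CCT2 and TCP1. Their limma adjusted p ran from 0.388 in CCT7 to 0.949 in CCT8. The other negative values were those of VBP1, PFDN5 and TBCD.

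Enzymes that modify tubulin were also not called, 0 of 16 tested by limma with or without the block or by limma-voom (1 lower and 2 higher at an unadjusted limma p under 0.05), and 10 of them had a negative log2 fold change. The 3 largest differences were those of TTLL1, a glutamylase subunit (log2 fold change 0.49), and of VASH1 and VASH2, which remove the last tyrosine of alpha tubulin (-0.48 and -0.42). In microtubule nucleation 0 of 17 tested genes were called in these fits, with 0 at an unadjusted limma p under 0.05, and HAUS8, TUBGCP4 and HAUS4 had the largest log2 fold changes at -0.21, -0.11 and -0.10.

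Among proteins that bind microtubules or their plus ends, 14 of 26 tested genes had a negative log2 fold change and 0 were called without the block (4 lower and 3 higher at an unadjusted limma p under 0.05), 2 were called lower with it, and limma-voom called 1 lower, KATNAL1. KATNAL1, related to the microtubule-severing katanin, was at 1.63, 1.83 and 1.85 RPKM with siNT and 0.486, 0.691 and 0.989 RPKM with si*HKlincR1* (log2 fold change -1.23, limma adjusted p = 0.101, and 0.0448 with the block). MAP1A, a microtubule-associated protein of neurons, was at 7.44 ± 2.29 and 4.32 ± 2.19 RPKM (log2 fold change -0.84, limma adjusted p = 0.302, and 0.0436 with the block). MAP2, a further neuronal protein of this kind, was higher by 0.45 on the log2 scale without passing the test (limma adjusted p = 0.236). The median log2 fold change was -0.05 in this list, -0.01 in nucleation and in the modifying enzymes, and -0.53 in the members.

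As a description of likeness over the 6 libraries, the tested genes outside the members whose log2 levels followed TUBA1C most closely were USP22 (Pearson's r = 0.9966), CEP43 (0.9961) and ASXL1 (0.9958). CEP43 was at 1.11, 1.04 and 1.22 RPKM with siNT and 0.654, 0.568 and 0.688 RPKM with si*HKlincR1* (log2 fold change -0.73, limma adjusted p = 0.142). The log2 fold changes of USP22 and ASXL1 were smaller, -0.17 (limma adjusted p = 0.25) and -0.16 (limma adjusted p = 0.292), and none of these genes was called. All were picked for the highest r over all tested genes.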

How the data were processed

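PolyA RNA of H460 cells was sequenced in strand-specific libraries as paired reads of 75 bases. Reads were assigned by the authors to Ensembl v74 genes with featureCounts (Rsubread), and RPKM values per gene were deposited. CASAVA 1.8.2 is listed in the submitters' processing notes, and the aligner and the strand setting are not given in the sources used here. Groups came from the sample titles. Because RPKM values were not rounded, reads were worked back from them, and all 31287 genes above 0 came out whole. These totals give the depth, and intervals cover only the spread between libraries.

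Values were transformed as log2(RPKM + 0.1) and fitted with limma 3.58.1 (R 4.3.3) with a mean-variance trend, over the 15451 genes averaging 0.5 RPKM or more, with Benjamini-Hochberg adjustment. The thresholds are those of the study, an adjusted p of 0.05 and a fold change of 1.5. The test is not: the study used another method, on reads per gene, and reported more genes higher than lower after the knockdown. The limma fit used here called 55 tested genes lower and 1 higher. A gene not called here may therefore have been called in the study. The pipeline was tested on simulated data. Sums and shares were compared with exact permutation tests.

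Deviations of same-numbered libraries correlated at 0.142, 0.137 and 0.266, and those of libraries with unlike numbers at -0.209 to 0.113. The 0.113 was that of siNT replicate 1 with si*HKlincR1* replicate 2, close to the lower same-numbered values. The replicate numbers of the titles were taken to pair the libraries, though the sources used here state no pairing. Results by pair and with the block rest on this reading. The members and lists were chosen with earlier results of these data known. Named genes were the members, *HKlincR1*, in each list the called genes and the 3 largest differences, the 3 highest pseudogenes, and the 3 genes most like TUBA1C. TTC5, SCAPER and AFG3L2 were added by choice after values were seen. So were TUBG2, TUBD1, TUBAL3, VBP1, PFDN5, TBCD and the chaperonin genes. TUBB8, TBCE, TUBGCP5 and PECAM1 had no matching row. The last coding bases of the alpha genes are not reported here.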

Additional observations from a re-analysis of the deposited data

How the results depend on the processing

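The fold changes of the 10 members were recomputed under 15 alternatives, and 148 of the 150 values were negative. The 2 exceptions were TUBB3 without siNT replicate 3 (0.08) and without si*HKlincR1* replicate 2 (0.16), and its values without 1 library ran from -0.31 to 0.16. The number of members called lower was 0 with no filter on low RPKM and 0 without the variance trend, where the adjusted p of TUBA1C was 0.0671 and 0.0809, and from 0 to 9 when 1 library was left out. With the replicate block it was 1, and the block changed no call of a member. The summed alpha level differed by -0.55 and the summed beta level by -0.53 on the log2 scale with the block, and no paired p could go below 0.25. Leaving out 1 library turned the small share differences of TUBA1A (-0.18 to 0.88 points), TUBA4A (-0.35 to 0.026), TUBB2A (-0.11 to 0.068) and TUBB2B (-0.067 to 0.0024). The group difference in the ratio of the alpha to the beta sum was -0.012, and 0.00519 with canonical transcript lengths, a setting chosen for this ratio after seeing the data. Depth limits TUBB2B most, with 91 to 168 reads.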
